A study of Mus musculus with 25 samples.

Results

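Tox and Tox2 encode nuclear proteins of the TOX family, and 11 of the 13527 ATAC-seq peaks in the count table were assigned to them: 8 to Tox and 3 to Tox2. A peak was taken as a member when the protein-coding gene start nearest to its midpoint was that of Tox or Tox2, or when the midpoint lay inside the body of either gene (GENCODE vM39 on GRCm39), a rule that reads positions only. ATAC-seq maps open chromatin through a transposase that cuts accessible DNA, and it was run here on CD8+ T cells from the spleen and lymph nodes of C57BL/6 females that recognise an antigen shared by a paternal-strain skin graft and by the semi-allogeneic fetus (T_FGS). The 25 libraries form 7 groups. Naive mice (3 libraries) received neither graft nor pregnancy, and Sensitized mice (4 libraries) had received an allogeneic skin graft. N+P mice were naive before a semi-allogeneic pregnancy, and their cells were sorted after birth into PD1- cells (N+P C1, 3 libraries) and PD1+CD73+ cells (N+P C5, 3 libraries). S+P mice were grafted before such a pregnancy, and their cells were sorted into PD1- (S+P C4), PD1+CD73+ (S+P C5) and PD1+CD73- cells (S+P C7), with 4 libraries each. The labels give no PD1 or CD73 gate for Naive and Sensitized cells, so in a comparison of C5 or C7 with either of them the effect of pregnancy and that of the sort cannot be told apart.

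TOX binds DNA through an HMG box and is known in CD8+ T cells for its part in the exhausted state, in which persistent antigen keeps inhibitory receptors such as PD1 expressed and the chromatin differs from that of memory cells. TOX2 is a close relative that is expressed in exhausted and in follicular helper T cells. Both genes are known to be induced downstream of the antigen receptor, through the calcium-dependent factor NFAT and the NR4A receptors.

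Tox lies on the minus strand of chromosome 4 (6686353 to 6991644, 305.3 kb, ENSMUSG00000041272.13) and Tox2 on the plus strand of chromosome 2 (163045021 to 163166191, 121.2 kb, ENSMUSG00000074607.13), with 9 exons each in the transcripts Tox-201 and Tox2-202. Peaks are named by gene and by the distance of the midpoint from the gene start, positive into the gene. The promoter peaks were Tox +1.4 kb (6988771 to 6991751) and Tox2 +0.2 kb (163044744 to 163045785). Intron 1 of Tox held Tox +20.9 kb (6970350 to 6971088), Tox +56.5 kb (6934862 to 6935444), Tox +89.6 kb (6901346 to 6902785), Tox +108.8 kb (6882520 to 6883080) and Tox +147.5 kb (6843634 to 6844661), and intron 3 held Tox +174.2 kb (6817217 to 6817713). The remaining Tox peak, Tox -463.5 kb (7454657 to 7455710), was intergenic and far upstream, and its assignment rests only on the distance to gene starts. In Tox2, the peak Tox2 +26.1 kb (163070856 to 163071383) lay in intron 1 and Tox2 +50.4 kb (163094977 to 163095895) in intron 2. In all, 8 of the 11 members were intronic, against 2818 of the 13527 peaks. Tox was rich in peaks: of the 8646 genes with an assigned peak, 87 had at least as many as Tox, and the median was 1 peak per gene.

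The sequences printed here, read from GRCm39 on the strand of the gene, are the central 300 bases of the 3 intronic Tox peaks that gained accessibility and of the one that lost most, and the stretch of the Tox2 promoter peak that precedes the gene start. Capitals mark letters that match 1 of 7 motif strings on either strand: AP-1 TGANTCA, NFAT TGGAAA, T-box GGTGTGA, TCF/LEF TTCAAAG, RUNX TGTGGTT, NR4A AAGGTCA and ETS ACAGGAA. No matches overlapped in these windows.
Tox +108.8 kb (chr4:6882650-6882949, minus strand): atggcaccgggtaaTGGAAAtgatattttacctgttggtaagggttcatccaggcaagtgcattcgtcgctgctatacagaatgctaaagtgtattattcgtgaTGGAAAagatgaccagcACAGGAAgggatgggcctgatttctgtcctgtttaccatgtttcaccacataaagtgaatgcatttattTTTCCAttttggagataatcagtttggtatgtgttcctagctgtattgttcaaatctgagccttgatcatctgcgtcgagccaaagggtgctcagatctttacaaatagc
Tox +147.5 kb (chr4:6843997-6844296, minus strand): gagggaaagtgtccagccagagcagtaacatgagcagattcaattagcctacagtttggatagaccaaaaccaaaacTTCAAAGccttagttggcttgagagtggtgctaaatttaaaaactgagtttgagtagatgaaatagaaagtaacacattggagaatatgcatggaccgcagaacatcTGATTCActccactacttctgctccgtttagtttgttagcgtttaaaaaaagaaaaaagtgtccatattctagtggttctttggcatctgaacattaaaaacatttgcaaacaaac
Tox +174.2 kb (chr4:6817315-6817614, minus strand): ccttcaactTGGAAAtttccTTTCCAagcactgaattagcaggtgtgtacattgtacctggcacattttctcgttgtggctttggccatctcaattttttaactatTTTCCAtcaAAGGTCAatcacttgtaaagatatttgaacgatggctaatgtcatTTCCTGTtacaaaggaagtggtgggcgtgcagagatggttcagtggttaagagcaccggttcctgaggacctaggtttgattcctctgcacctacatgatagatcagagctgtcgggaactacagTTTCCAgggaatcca
Tox +20.9 kb (chr4:6970569-6970868, minus strand): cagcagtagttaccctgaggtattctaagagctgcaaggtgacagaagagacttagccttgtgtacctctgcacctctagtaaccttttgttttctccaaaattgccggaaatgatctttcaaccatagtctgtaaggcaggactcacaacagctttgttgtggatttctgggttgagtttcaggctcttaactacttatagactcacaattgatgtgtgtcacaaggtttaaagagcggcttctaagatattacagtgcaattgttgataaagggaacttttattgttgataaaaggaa
Tox2 +0.2 kb (chr2:163044744-163045020, plus strand): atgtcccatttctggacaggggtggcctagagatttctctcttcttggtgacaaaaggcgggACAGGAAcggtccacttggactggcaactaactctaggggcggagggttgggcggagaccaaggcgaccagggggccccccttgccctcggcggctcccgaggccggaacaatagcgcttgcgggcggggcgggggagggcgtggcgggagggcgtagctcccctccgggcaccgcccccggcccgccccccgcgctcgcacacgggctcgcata

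The NFAT string occurred 3 times in Tox +108.8 kb and 4 times in Tox +174.2 kb, and in no other central window of a member. Over the whole peaks it occurred 4 times in each of these and also 4 times in Tox +89.6 kb, which was not called in any comparison with all libraries, 2 times in Tox +1.4 kb and 1 time in Tox -463.5 kb. Among the central windows of 13522 peaks, 18.1% held it at least once and 0.177% held it at least 3 times. Both windows also held the ETS string (13.5% of all windows), and Tox +174.2 kb held the NR4A string (3.45%). Tox +147.5 kb had 1 TCF/LEF match (5.35% of all windows) and 1 AP-1 match (9.2%), and none of the strings was found in the window of Tox +20.9 kb, which says only that these letters are absent there. The printed stretch of Tox2 +0.2 kb had 1 ETS match, and the central window of that peak, not printed, had 1 T-box match (5.12% of all windows). Tox2 +26.1 kb had 1 RUNX match (10.8% of all windows) and Tox2 +50.4 kb 1 ETS match. The 6 Tox intron windows were low in GC, from 32.7% in Tox +89.6 kb to 47.0% in Tox +56.5 kb, against a median of 57.3% over all windows, while the Tox2 promoter window reached 67.7%.

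Total counts per library ran from 2430890 to 25419715 with a median of 8197552, and the lowest and the highest were S+P C4 replicate 1 and S+P C5 replicate 1. Levels are normalised read counts, that is, counts divided by DESeq2 size factors, and a peak was called when the DESeq2 Wald test gave a Benjamini-Hochberg adjusted p under 0.1 and a log2 fold change beyond 0.9 in either direction. The count table was merged from the authors' peak lists of the 7 groups, and each of its peaks overlapped at least 1 list, so a peak in the list of 1 group alone entered through a group in which it is likely to be high. Tox +108.8 kb, Tox +174.2 kb and Tox2 +0.2 kb overlapped the S+P C5 list only, as did 1363 of all peaks, of which 16.9% opened and 0 closed in S+P C5 against Sensitized. Tox +147.5 kb, Tox2 +26.1 kb and Tox2 +50.4 kb overlapped the S+P C5 and S+P C7 lists only, as did 744 peaks, of which 19.0% opened and 0 closed. Tox +56.5 kb overlapped the Sensitized list only, Tox +89.6 kb the N+P C1 list only, and Tox -463.5 kb the Naive, N+P C1 and N+P C5 lists only. The direction of these members' changes in those groups is therefore in part fixed by how the peaks were chosen, and the tests do not allow for it. A call is opening when the group named first was higher and closing when it was lower. The 4 Sensitized libraries stood apart from each other: over all peaks, replicates 3 and 4 correlated best with the mean of N+P C5 (r = 0.973 and 0.955) and replicate 1 with that of S+P C4 (r = 0.931), so the members' calls against Sensitized were recomputed without replicates 3 and 4. S+P C4 replicate 1 was likewise closest to N+P C5 (r = 0.923). Scaling mattered to the direction of calls over all peaks: with loess offsets the opening share of calls went from 83.8% to 66.5% in Sensitized against Naive, from 45.6% to 23.2% in S+P C5 against Sensitized, from 32.3% to 16.2% in S+P C7 against Sensitized and from 59.6% to 43.8% in S+P C5 against N+P C5. By the study's methods cell suspensions were prepared from individual mice, while the labels do not say which libraries share a mouse. Of the CD8 T cell markers, 6 of 7 genes had peaks (Cd8b1 had none), with summed normalised counts of 5990 to 10780 per library. No B cell marker (0 of 6) or myeloid marker (0 of 5) had a peak. Of 3 CD4 T cell markers Cd4 alone had peaks (2 peaks, 236 to 633), with none at Foxp3 or Zbtb7b. Of 3 NK markers Klrb1c alone did (7 peaks, 3810 to 5322), with none at Ncr1 or Klre1. At Klrb1c 1 peak opened in Sensitized against Naive, S+P C5 against N+P C5 and S+P C4 against N+P C1 (7.22%, 10.3% and 9.62% of all peaks). At Cd4 1 peak closed in S+P C4 against N+P C1 (2.99%). The part of these genes in the results was not tested.

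By the ratio of the highest to the lowest group mean, Tox +108.8 kb (22.5) and Tox +147.5 kb (21.8) were the most changed members, and the next was Tox +20.9 kb (5.93). Tox +108.8 kb was nearly closed in mice without a graft: it had normalised counts of 16.5, 11.8 and 13.2 in Naive, 16.6, 12.3 and 11.3 in N+P C1, and 26.2, 26.0 and 26.5 in N+P C5. Sensitized libraries had 84.2, 94.9, 22.9 and 54.2, and S+P C4 had 81.7, 42.8, 99.0 and 22.2. The highest values were in the PD1+ cells of S+P mice, with 204, 320, 449 and 235 in S+P C5 and 186, 209, 351 and 92.8 in S+P C7. Every S+P C5 library lay above every library of the other groups except 2 of S+P C7, with which it overlapped. The peak was higher in Sensitized than in Naive by 2.22 ± 0.52 (log2 fold change ± SE, DESeq2 adjusted p = 0.000327) and higher again in S+P C5 than in Sensitized by 2.24 ± 0.44 (DESeq2 adjusted p = 1.5e-05), a 4.72-fold difference at a peak that entered the table through S+P C5. Against N+P C5, cells of the same surface phenotype from mice without a graft, S+P C5 was 11.5-fold higher (log2 3.52 ± 0.50, DESeq2 adjusted p = 5.01e-11).

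These differences at Tox +108.8 kb depend on how the libraries are scaled. Only 0.547% of all peaks had a lower mean count, and the raw counts behind the Naive values were 12 to 21. With loess offsets, which centre each library on peaks of like mean count, the log2 difference was -0.21 for Sensitized against Naive (DESeq2 adjusted p = 0.816), 0.74 for S+P C5 against Sensitized (0.118) and 0.01 for S+P C5 against N+P C5 (0.989). The gain over S+P C4, the PD1- cells of S+P mice, kept its call with these offsets (1.05, against 2.33 ± 0.45 with size factors, DESeq2 adjusted p = 0.0459 and 1.31e-05). Without Sensitized replicates 3 and 4 and with size factors, the difference between Sensitized and Naive was 2.70 (DESeq2 adjusted p = 7.4e-06) and that between S+P C5 and Sensitized was 1.76 (0.00545).

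Tox +147.5 kb, the next peak into the gene, separated grafted from ungrafted mice completely. It had 15.2, 21.6 and 20.2 normalised counts in Naive, 23.2, 13.5 and 26.4 in N+P C1, and 38.2, 37.0 and 28.9 in N+P C5. Among grafted mice it had 276, 316, 82.0 and 99.3 in Sensitized, 204, 134, 207 and 176 in S+P C4, against 302, 569, 436 and 345 in S+P C5, and 329, 386, 545 and 290 in S+P C7. The lowest grafted library thus had more than the highest ungrafted one. The difference between Sensitized and Naive was 10.1-fold (log2 3.33 ± 0.41, DESeq2 adjusted p = 1.19e-13), and it was called under every alternative, from 2.11 with loess offsets to 3.94 without Sensitized replicates 3 and 4. A second, smaller step separated the PD1+ cells: the peak was higher in S+P C5 than in S+P C4 by 1.20 ± 0.35 (DESeq2 adjusted p = 0.00927) and than in Sensitized by 1.09 ± 0.34 (DESeq2 adjusted p = 0.0115). The step over Sensitized rested on Sensitized replicates 3 and 4, without which it was 0.48 (DESeq2 adjusted p = 0.331), and with loess offsets neither step was called (0.48 over S+P C4, 0.40 over Sensitized).

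Tox +174.2 kb, in intron 3, was highest in S+P C5, the only group whose list held it. Its normalised counts were 92.3, 83.6 and 99.1 in Naive, 86.3, 88.6 and 109 in N+P C1, 94.6, 100 and 120 in N+P C5, and 126, 173, 103 and 133 in Sensitized. S+P C4 had 112, 93.5, 124 and 78.6, while S+P C5 had 247, 262, 336 and 154, and S+P C7 had 212, 146, 234 and 115. Every S+P C5 library exceeded every S+P C4 library, with a difference of 1.31 ± 0.26 (DESeq2 adjusted p = 1.71e-05), or 0.80 with loess offsets, below the fold threshold. The peak was also higher in S+P C5 than in N+P C5, by 1.25 ± 0.27 (DESeq2 adjusted p = 2.73e-05), or -0.11 with loess offsets. Its gain over Sensitized, 0.91 ± 0.24 (DESeq2 adjusted p = 0.0027), sat at the fold threshold and was below it in 10 of 19 alternatives, among them 0.75 without Sensitized replicates 3 and 4.

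**Figure D1:**
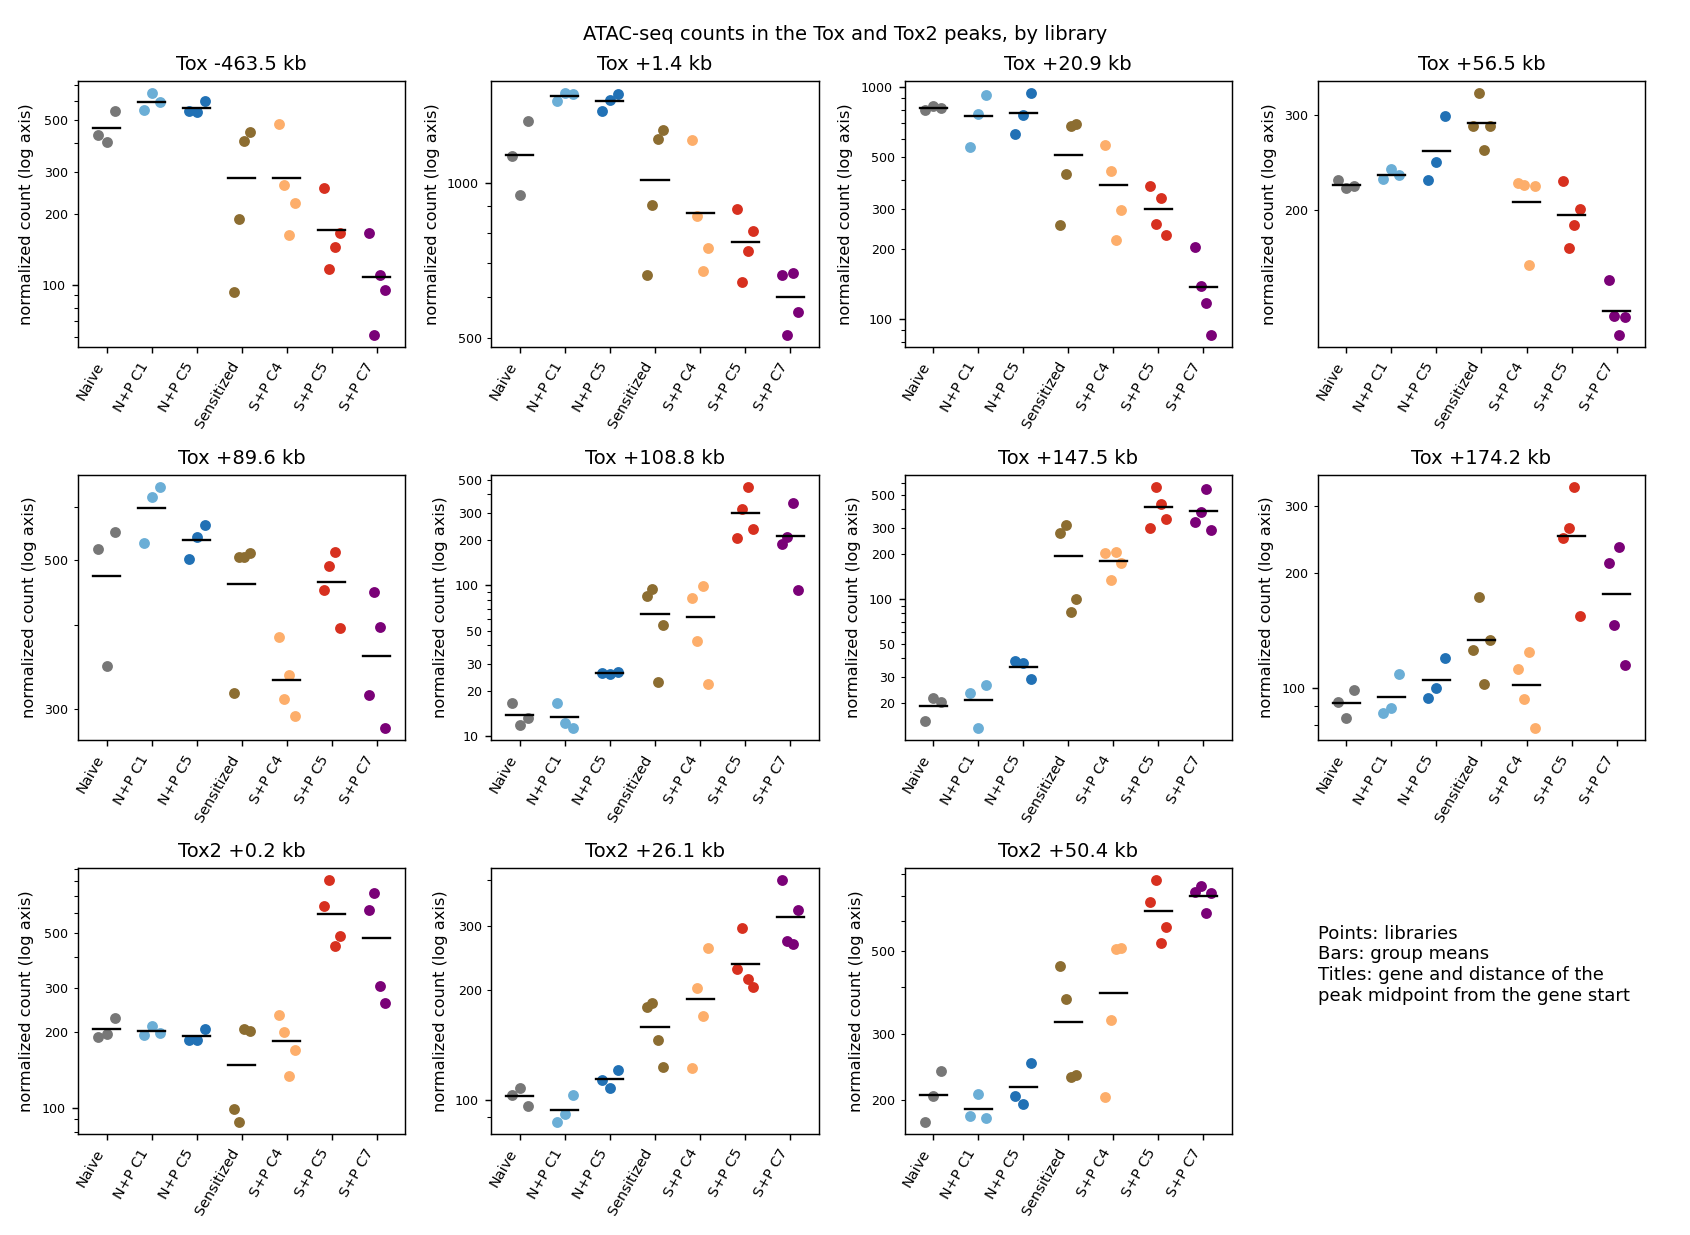
Normalised ATAC-seq counts (log axis) of the 11 Tox and Tox2 peaks in each of the 25 libraries, by group; points are libraries and bars are group means. Tox +147.5 kb is below 40 in every ungrafted library and between 82.0 and 569 in the grafted ones, whereas Tox +20.9 kb falls to 85.8 to 206 in S+P C7.

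Tox +20.9 kb, Tox +56.5 kb and the distant upstream peak were lower in S+P C7 than in Sensitized. Tox +20.9 kb had 799, 826 and 814 normalised counts in Naive, 552, 766 and 927 in N+P C1, and 628, 757 and 941 in N+P C5. It had 255, 421, 678 and 692 in Sensitized, 561, 435, 221 and 296 in S+P C4, against 375, 257, 333 and 231 in S+P C5, and 206, 140, 118 and 85.8 in S+P C7. All S+P C7 libraries lay below every library of the other 6 groups. The peak was lower in S+P C7 than in Sensitized (log2 -1.90 ± 0.30, DESeq2 adjusted p = 1.22e-08), a 3.73-fold difference that every alternative called, with -1.30 without Sensitized replicates 3 and 4. It was also lower in S+P C7 than in S+P C5 (-1.13 ± 0.30, DESeq2 adjusted p = 0.00766), the only member called between the CD73- and CD73+ subsets of PD1+ cells. Without S+P C5 replicate 1 (DESeq2 adjusted p = 0.101) and without S+P C7 replicate 4 (-0.95, 0.104) the size stayed beyond the fold threshold and the adjusted p did not pass.

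Tox +56.5 kb changed within a narrow range. It had 227, 219 and 221 in Naive, 228, 238 and 232 in N+P C1, 227, 245 and 298 in N+P C5, and 286, 329, 259 and 286 in Sensitized. After pregnancy in grafted mice it had 225, 222, 158 and 222 in S+P C4, against 226, 170, 187 and 201 in S+P C5, and 149, 128, 118 and 127 in S+P C7, the lowest group. S+P C7 was below Sensitized (log2 -1.14 ± 0.14, DESeq2 adjusted p = 1.43e-14), and the call held in all 19 alternatives, with -1.22 without Sensitized replicates 3 and 4. Of the 235 peaks that, like it, were in the Sensitized list only, 14.5% closed and 0.426% opened in this comparison. The decrease in S+P C5 was -0.54 ± 0.13 (DESeq2 adjusted p = 0.000469), which did not reach the fold threshold.

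Tox -463.5 kb had 431, 401 and 547 in Naive, 552, 648 and 592 in N+P C1, and 546, 541 and 598 in N+P C5. Grafted mice had 92.9, 189, 405 and 441 in Sensitized, 480, 264, 163 and 221 in S+P C4, against 257, 116, 145 and 165 in S+P C5, and 166, 61.3, 109 and 95.3 in S+P C7. Sensitized replicates 3 and 4 were near the Naive values and replicates 1 and 2 were not. The peak was lower in S+P C5 than in N+P C5 by 1.71 (log2 -1.71 ± 0.40, DESeq2 adjusted p = 1e-04), with no overlap between the groups. It entered the table through the Naive, N+P C1 and N+P C5 lists only. The choice of peaks thus favours this direction, and the test does not allow for it. Against Sensitized, S+P C7 was lower (-1.38 ± 0.38, DESeq2 adjusted p = 0.0012), and without Sensitized replicates 3 and 4 that difference was -0.37 and lost its call.

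The Tox promoter peak had at least 507 normalised counts in every library, though only the Naive, N+P C1, N+P C5 and S+P C5 lists held it. It was called in none of the 13 comparisons with all libraries and no block. Tox +1.4 kb had 1128, 946 and 1320 in Naive, 1438, 1492 and 1483 in N+P C1, 1379, 1447 and 1486 in N+P C5, and 662, 907, 1215 and 1266 in Sensitized. It had 1211, 861, 673 and 748 in S+P C4, against 890, 641, 737 and 807 in S+P C5, and 663, 507, 669 and 563 in S+P C7. All S+P C5 libraries lay below all N+P C5 libraries (-0.90 ± 0.19, DESeq2 adjusted p = 1.81e-05), a difference just inside the fold threshold. It was called as closing with the replicate number as a block (-0.92) and in 3 of the fits that left out 1 library. The number marks no pair between these groups, which come from different mice. Deviations of same-numbered libraries correlated at -0.23, 0.01 and -0.04. Between Sensitized and Naive (-0.16, DESeq2 adjusted p = 0.647) and between S+P C5 and S+P C4 (-0.17, 0.707) the groups overlapped. S+P C7 was below Sensitized (-0.75, DESeq2 adjusted p = 0.000175), with overlap and with -1.04 to -0.38 over the alternatives. Without overlap, S+P C4 was below N+P C1 (-0.76, DESeq2 adjusted p = 0.000599) and S+P C7 below S+P C4 (-0.53, 0.0249). These differences also lay within the fold threshold. Tox +89.6 kb, the other peak without a call in the main fit, ranged from 281 to 642 over the 25 libraries. It was lower in S+P C4 than in N+P C1 (-0.86 ± 0.19, DESeq2 adjusted p = 6.09e-05), with no overlap. That difference lay within the fold threshold and was called in 2 of 16 alternatives.

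**Figure D2:**
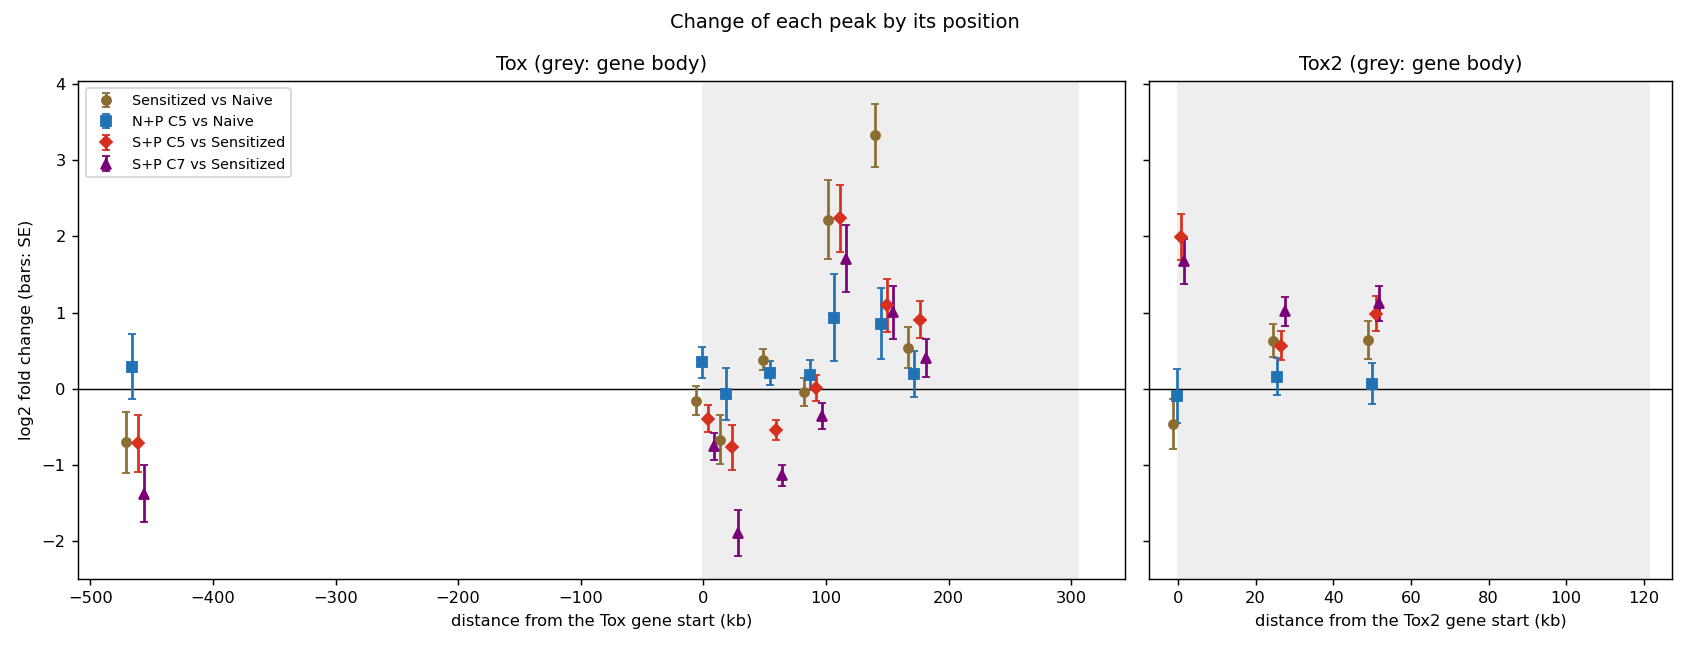
Log2 fold change (points, with SE bars) of each peak against the distance of its midpoint from the start of Tox or Tox2 in kb, for 4 comparisons, with points of one peak set slightly apart; grey marks the gene body. In S+P C7 against Sensitized, the Tox peaks at +20.9 and +56.5 kb are at -1.90 and -1.14 and those at +108.8 and +147.5 kb at 1.71 and 1.00.

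At Tox2 the promoter peak was higher in the PD1+ cells of S+P mice, and it too was in the S+P C5 list only. Tox2 +0.2 kb had 191, 197 and 228 normalised counts in Naive, 195, 212 and 198 in N+P C1, and 186, 186 and 206 in N+P C5. It had 98.6, 87.9, 206 and 202 in Sensitized and 235, 201, 134 and 170 in S+P C4. In S+P C5 it rose to 638, 810, 442 and 484, and in S+P C7 it had 612, 718, 305 and 263. All 8 libraries of S+P C5 or S+P C7 lay above the other 17. S+P C5 was 3.98-fold above Sensitized (log2 1.99 ± 0.30, DESeq2 adjusted p = 3.34e-09) and 3.08-fold above N+P C5 (1.62 ± 0.32, DESeq2 adjusted p = 4.96e-06). It was higher than S+P C4, the PD1- cells, by 1.69 ± 0.30 (DESeq2 adjusted p = 2.08e-06). These calls held under every alternative, including loess offsets, and without Sensitized replicates 3 and 4 the difference from Sensitized was 2.67.

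Tox2 +50.4 kb rose in smaller steps. It had 175, 206 and 239 in Naive, 181, 207 and 179 in N+P C1, 205, 195 and 251 in N+P C5, and 456, 371, 231 and 233 in Sensitized. S+P C4 had 204, 327, 505 and 508, while S+P C5 had 674, 773, 525 and 580, and S+P C7 had 719, 747, 631 and 714. The 8 PD1+ libraries of S+P mice again lay above all others. The difference between S+P C5 and Sensitized was 0.98 ± 0.23 (DESeq2 adjusted p = 0.000408), and 0.62 without Sensitized replicates 3 and 4, below the fold threshold. The difference from N+P C5, 1.55 ± 0.25 (DESeq2 adjusted p = 1.2e-08), was called in every alternative.

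Tox2 +26.1 kb had 103, 108 and 96.5 in Naive, 87.4, 92.0 and 104 in N+P C1, and 114, 108 and 121 in N+P C5. Sensitized had 180, 185, 146 and 123, S+P C4 122, 202, 170 and 261, while S+P C5 had 229, 295, 214 and 204, and S+P C7 had 401, 272, 268 and 332. Every grafted library exceeded every ungrafted one, though the lowest and highest of them, 122 and 121, were close. S+P C7 was 2.02-fold above Sensitized (log2 1.02 ± 0.19, DESeq2 adjusted p = 2.21e-06), or 0.81 without Sensitized replicates 3 and 4, and S+P C5 was above N+P C5 by 1.03 ± 0.22 (DESeq2 adjusted p = 1.66e-05), or 0.33 with loess offsets.

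Sensitization by the graft alone was examined with Sensitized against Naive. Of the 11 members, 2 were called, both opening (Tox +108.8 kb and Tox +147.5 kb), where 8.62% of all 13527 peaks were called, 7.22% as opening and 1.4% as closing. The groups did not overlap at 6 members, against 22.7% of all peaks. Without Sensitized replicates 3 and 4, 6 members were called, 3 opening and 3 closing, where the calls over all peaks also rose, to 15.2% (9.44% opening and 5.73% closing). Those closing were Tox +20.9 kb (-1.27), Tox -463.5 kb (-1.71) and the Tox2 promoter peak, Tox2 +0.2 kb (-1.14, DESeq2 adjusted p = 0.00403). With loess offsets 1 member was called.

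Pregnancy in mice without a graft left the members uncalled. No member was called in N+P C1 against Naive (0.0205% of peaks with an adjusted p called), N+P C5 against Naive (0.0262%) or N+P C5 against N+P C1 (0.0%), by DESeq2 or by edgeR's quasi-likelihood test, and 0 members had an unadjusted p under 0.05 in DESeq2, against 19.0%, 17.5% and 2.28% of all peaks. Without Naive replicate 3, which correlated better with the mean of N+P C1 (r = 0.988) than with its own group (0.97), the share of peaks called was 1.23% in N+P C1 against Naive and 1.16% in N+P C5 against Naive, and 0 members were called. The independent filter of DESeq2 left an adjusted p for 1 of the 11 members, Tox +1.4 kb, in each comparison with Naive. The largest differences between N+P C5 and Naive were 0.93 ± 0.57 at Tox +108.8 kb (95% interval -0.19 to 2.06) and 0.86 ± 0.46 at Tox +147.5 kb (-0.05 to 1.76). At both peaks all 3 N+P C5 libraries exceeded all Naive and all N+P C1 libraries. The groups did not overlap at 5 of the 11 members in N+P C5 against Naive (26.2% of all peaks), at 3 in N+P C1 against Naive (27.0%) and at 3 in N+P C5 against N+P C1 (11.1%).

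Pregnancy after sensitization was examined in each sorted subset against Sensitized. In S+P C4, the PD1- cells, 0 of 11 members were called (0.858% of all peaks, 0.562% as opening and 0.296% as closing), 1 did not overlap between the groups (3.96%), 2 had an unadjusted p under 0.05, against 18.7% of all peaks, and edgeR called 0. Without Sensitized replicates 3 and 4, 1 member was called (2.31% of all peaks), Tox2 +0.2 kb, as opening (0.97, DESeq2 adjusted p = 0.0581). Without replicates 1 and 2 it was another, Tox +147.5 kb, also as opening (0.98, DESeq2 adjusted p = 0.00571, 4.74% of all peaks). In S+P C5, 5 members were called, all opening (6.74% of all peaks called, 3.08% as opening and 3.67% as closing): Tox +108.8 kb, Tox +147.5 kb, Tox +174.2 kb, Tox2 +0.2 kb and Tox2 +50.4 kb. The groups did not overlap at 5 members, against 14.7% of all peaks. Without Sensitized replicates 3 and 4, 2 of the 5 called members remained called, Tox +108.8 kb and Tox2 +0.2 kb (3.25% of all peaks called), and without replicates 1 and 2 the number was 7 (13.2%). In S+P C7, 8 members were called, 5 opening and 3 closing (11.9% of all peaks, 3.84% as opening and 8.03% as closing), and 4 without Sensitized replicates 3 and 4 (6.96% of all peaks). The opening members were Tox +108.8 kb (1.71 ± 0.44, DESeq2 adjusted p = 0.000611), Tox +147.5 kb (1.00 ± 0.34, 0.0113) and the 3 Tox2 peaks. Without Sensitized replicates 3 and 4, Tox +108.8 kb (1.22, DESeq2 adjusted p = 0.0515) and Tox2 +0.2 kb (2.34) kept their calls and Tox +147.5 kb (0.38, 0.348), Tox2 +26.1 kb and Tox2 +50.4 kb (0.77) did not. With loess offsets Tox +108.8 kb (0.14, DESeq2 adjusted p = 0.782), Tox +147.5 kb (0.28, 0.407) and Tox2 +26.1 kb (0.72, under the fold threshold) were not called. The closing members were Tox +20.9 kb, Tox +56.5 kb and Tox -463.5 kb, and 5 members did not overlap between the groups (25.5% of all peaks).

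Mice with and without a graft were also compared after pregnancy between subsets with the same PD1 and CD73 label. The paper describes C1 as naive-like and C4 as sensitized-like, so the PD1- comparison does not hold the rest of the phenotype fixed. In S+P C5 against N+P C5, 8 members were called (17.2% of all peaks), 6 opening (10.3%) and 2 closing (6.97%), and 10 did not overlap (62.9%). All 3 Tox2 peaks and the 3 deepest Tox peaks opened, and Tox +20.9 kb and Tox -463.5 kb closed. With loess offsets the 2 closing and 3 of the 6 opening calls held (8.46% and 6.6% of all peaks), and Tox +108.8 kb (0.01), Tox +174.2 kb (-0.11) and Tox2 +26.1 kb (0.33) lost theirs. In S+P C4 against N+P C1, the PD1- cells, 6 members were called (12.6% of all peaks), 4 opening (9.62%) and 2 closing (2.99%), and 7 did not overlap (42.2%). Tox +147.5 kb (3.12 ± 0.43, DESeq2 adjusted p = 1.63e-11) and Tox +108.8 kb (2.15 ± 0.55, DESeq2 adjusted p = 0.000677) were the most changed there, and the second was -0.85 with loess offsets. The Tox2 promoter was not among the calls in PD1- cells (-0.14 ± 0.33, 95% interval -0.79 to 0.52). The call count there was 3 without S+P C4 replicate 4 (11.1% of all peaks). With loess offsets 5 members were called, 2 opening (Tox +147.5 kb and Tox2 +50.4 kb, 7.12% of all peaks) and 3 closing (Tox +174.2 kb, Tox +20.9 kb and Tox -463.5 kb, 5.89%).

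**Figure D3:**
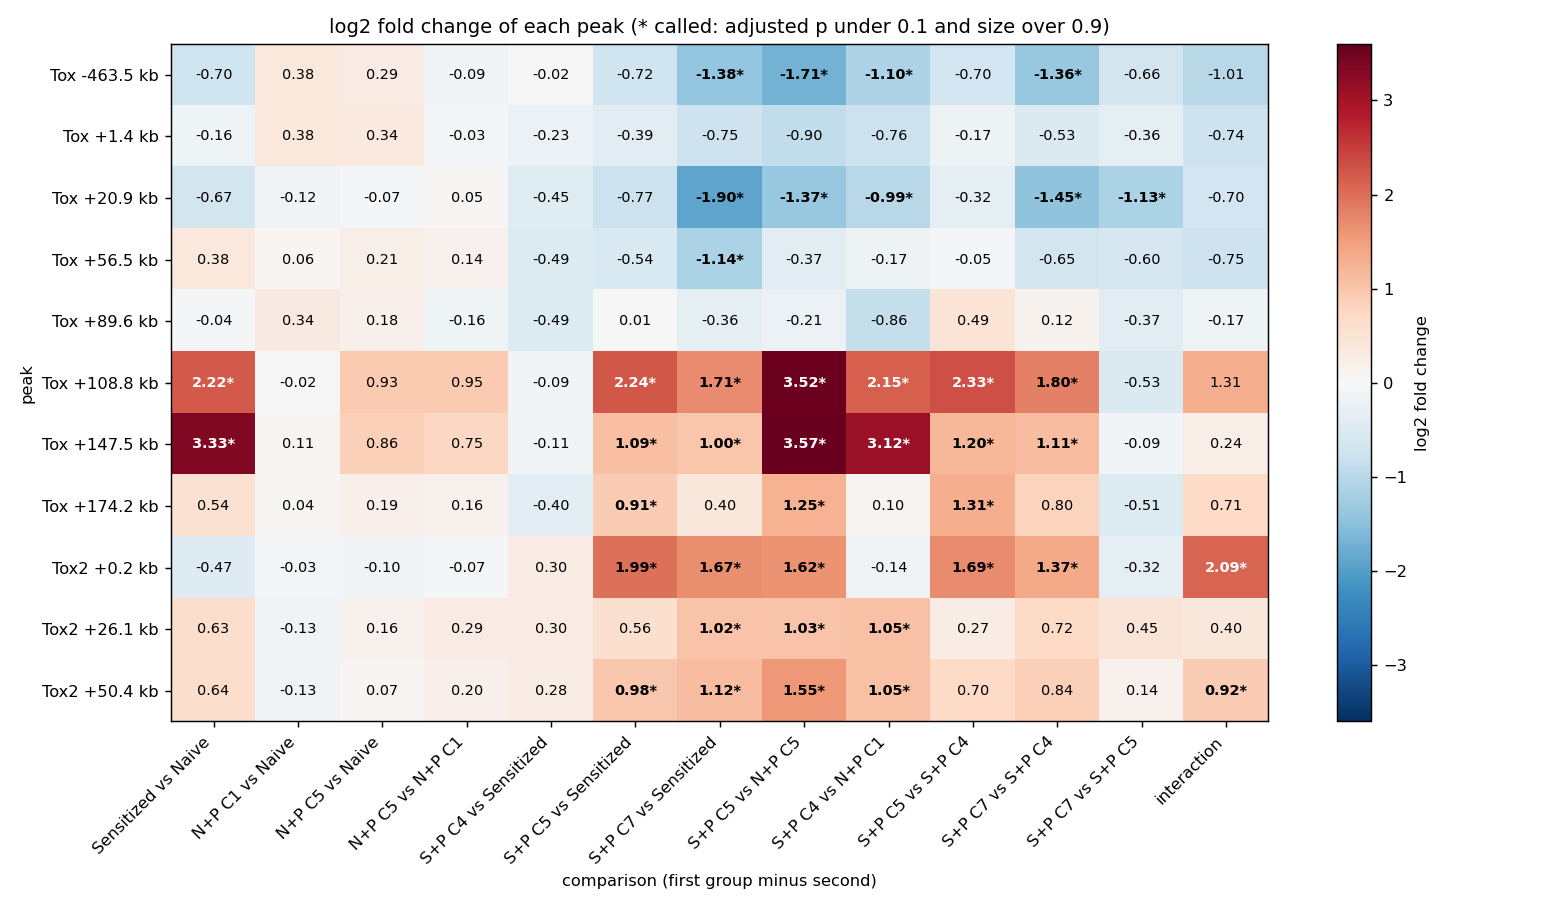
Log2 fold change of the 11 peaks in the 13 comparisons, first group minus second, as colour and number; asterisks mark calls (DESeq2 adjusted p under 0.1 and a size over 0.9). The 3 comparisons among Naive, N+P C1 and N+P C5 hold no call, and S+P C5 against N+P C5 holds 8.

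The subsets of S+P mice share graft and pregnancy and differ in the sort. S+P C5 differed from S+P C4 at 4 members, all opening (5.12% of all peaks called, 3.12% as opening and 2.0% as closing), and 6 did not overlap (11.7%). S+P C7 differed from S+P C4 at 5 (7.73%), 3 opening (2.48%) and 2 closing (5.25%), and 7 did not overlap (16.0%). The opening members called in both were Tox +108.8 kb, Tox +147.5 kb and Tox2 +0.2 kb, and the comparisons share the S+P C4 libraries. With loess offsets Tox2 +0.2 kb alone was called in both, since Tox +147.5 kb had 0.48 and 0.36 (DESeq2 adjusted p = 0.317 and 0.41) and Tox +108.8 kb had 0.45 in S+P C7 against S+P C4 (0.46). Between S+P C7 and S+P C5, 1 member was called (2.38% of all peaks), Tox +20.9 kb, as given above, which closed (2.11%, against 0.266% as opening), and 2 did not overlap (11.5%). At Tox2 +0.2 kb that difference was -0.32 (95% interval -0.91 to 0.26), and at Tox +147.5 kb -0.09 (-0.76 to 0.58), and with the replicate number as a block these were -0.40 (-0.71 to -0.08) and -0.10 (-0.48 to 0.28). In same-numbered libraries 8 of the 11 members, Tox2 +0.2 kb among them, were lower in S+P C7 in all 4 pairs, against 22.3% of all peaks. With the block these 8 had a DESeq2 adjusted p under 0.1, and the share of all peaks under that limit alone was not counted. Of the 8, Tox +20.9 kb alone passed the fold threshold, where 3.33% of all peaks were called with the block. A pooled signal such as this cannot tell a larger share of cells with an open site from more frequent opening per cell.

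**Figure D4:**
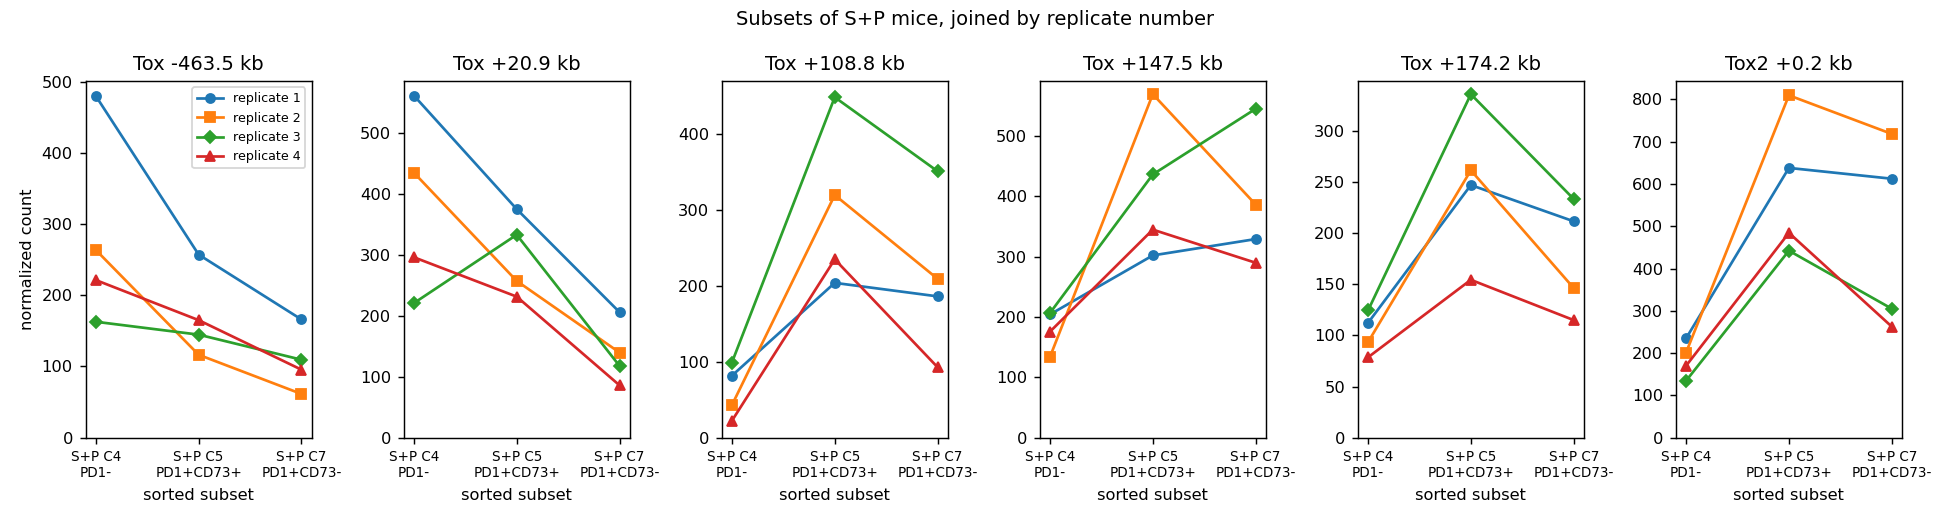
Normalised counts of the 6 peaks called in a comparison of subsets, in the PD1-, PD1+CD73+ and PD1+CD73- cells of S+P mice, with lines joining libraries of the same replicate number. Tox2 +0.2 kb goes from 134 to 235 in S+P C4 to 442 to 810 in S+P C5, and Tox +20.9 kb goes down to 85.8 to 206 in S+P C7.

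Whether the change to post-partum C5 cells differed with and without earlier sensitization was tested as an interaction, the change from Sensitized to S+P C5 minus the change from Naive to N+P C5. At 2 members the interaction was called, both opening (5.97% of all peaks called, 3.04% as opening and 2.93% as closing). Tox2 +0.2 kb had 2.09 ± 0.46 (DESeq2 adjusted p = 0.000911) and was called in all 24 alternatives. Tox2 +50.4 kb had 0.92 ± 0.36 (DESeq2 adjusted p = 0.0516) and was called in 13 of 24. Of the peaks that, like Tox2 +0.2 kb, were in the S+P C5 list only, 15.1% opened and 0 closed in the interaction. Among those in the S+P C5 and S+P C7 lists only, like Tox2 +50.4 kb, 15.7% opened and 0 closed. All alternatives share this choice of peaks. Of the Tox peaks, Tox +108.8 kb had 1.31 ± 0.72 (95% interval -0.11 to 2.72, DESeq2 adjusted p = 0.169) and Tox +147.5 kb 0.24 ± 0.57 (-0.89 to 1.36), so a difference between both changes was not shown at either with all libraries. Without Sensitized replicates 1 and 2 both were called, with 2.04 (DESeq2 adjusted p = 0.0166) and 1.34 (0.00834). The number of members called was 1 without Sensitized replicates 3 and 4 (2.36% of all peaks) and 7 without replicates 1 and 2 (17.5%), so the calls over all peaks moved the same way. With loess offsets 1 member opened, Tox2 +0.2 kb (1.49% of all peaks), and 1 closed, Tox +56.5 kb (-0.94, DESeq2 adjusted p = 0.0011, 5.02% of all peaks).

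The peak lists that the authors made for each group, which keep peaks recurring within the group, held different members. The S+P C5 list, the longest with 11384 peaks, had 8 of the 11, where 82.9% of all peaks of the count table overlapped it. The N+P C1 list had 4 (62.9% of all peaks), the Naive list 3 (62.6%), the N+P C5 list 3 (62.2%), the S+P C7 list 3 (64.0%) and the Sensitized list 2 (71.1%). The S+P C4 list, the shortest with 3788 peaks, held 0 (27.0%). In every list the members' share was below that of all peaks. Tox -463.5 kb was in the Naive, N+P C1 and N+P C5 lists. No member had a deposited q-value under 0.05 in any list, where 6.87% (Naive) to 28.8% (S+P C4) of the listed peaks did.

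Beyond the members, the nearest peaks on either side of both loci were not called, with 1 exception, which was singled out after its values were seen. An intergenic peak on chromosome 2 (162944721 to 162945889) lay at -99.7 kb from the Tox2 start and at -13.4 kb from the start of Gtsf1l, to which the rule assigns it. Its mean normalised count was 66.3 ± 9.67 (SD, n = 3) in Naive, 75.2 ± 26.4 (n = 3) in N+P C1, 108 ± 33.4 (n = 3) in N+P C5, 89.2 ± 41.2 (n = 4) in Sensitized and 168 ± 47.0 (n = 4) in S+P C4. In S+P C5 it was 885 ± 184 (n = 4) and in S+P C7 830 ± 324 (n = 4). The difference between S+P C5 and Sensitized was 3.31 ± 0.31 (DESeq2 adjusted p = 1.62e-23), and the interaction was 2.60 ± 0.48 (DESeq2 adjusted p = 6.36e-05). Like Tox2 +0.2 kb, it was called in S+P C5 and S+P C7 against both Sensitized and S+P C4. Unlike Tox2 +0.2 kb, it was also called in S+P C4 against N+P C1 (1.13 ± 0.35, DESeq2 adjusted p = 0.00563), and a difference between both peaks was not tested.

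The pattern over libraries was described by Pearson's r of log2(normalised count + 1) over the 25 libraries, which share groups and depth. Tox +108.8 kb went with Tox +147.5 kb (r = 0.923), Tox +174.2 kb (0.884) and Tox2 +50.4 kb (0.842), and against Tox -463.5 kb (-0.796) and Tox +20.9 kb (-0.757). Outside both loci, peaks assigned to Rsbn1 (0.965), Trp53inp1 (0.96), Baz1a (0.96) and Srp54a (0.958) were among those most like it. Tox2 +0.2 kb was most like peaks assigned to Ikzf2, which encodes the transcription factor Helios (0.96), the chemokine receptor gene Cxcr4 (0.925), Msi2 (0.921), the death ligand gene Fasl (0.91) and the inhibitory receptor gene Ctla4 (0.903), and its r with Tox +108.8 kb was 0.596.

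Related genes were counted by their assigned peaks. Tox3 and Tox4, the other members of the family, had none. The factors known to act upstream of Tox, that is Nfatc1, Nfatc2, Nfatc3, Nfat5, Nr4a1, Nr4a2, Nr4a3, Batf and Irf4, had 28 peaks, of which 0 opened and 1 (at Nfatc1) closed in S+P C5 against Sensitized (3.08% and 3.67% of all peaks opened and closed), with a median log2 difference of 0.14 against -0.01 over all peaks. In S+P C5 against N+P C5, 4 of them opened and 1 closed (10.3% and 6.97% of all peaks). The T cell differentiation factors had 84 peaks at 13 genes, of which 9 opened (at Eomes, Id2, Ikzf2, Maf, Tbx21 and Zeb2) and 13 closed (at Bach2, Lef1 and Satb1) in S+P C5 against Sensitized, with a median of -0.17, beside the same 3.08% and 3.67% of all peaks. Inhibitory receptors and ectoenzymes had 24 peaks at 6 of 9 genes (none at Lag3, Cd160 or Cd244a). Of these, 8 opened and 0 closed in S+P C5 against Sensitized, at Pdcd1 (PD1), Nt5e (CD73), Entpd1 (CD39), Tigit, Ctla4 and Havcr2, with a median of 0.46, where 3.08% of all peaks opened. S+P C5 was sorted on PD1 and CD73, so Pdcd1 and Nt5e are genes of the sort itself. In S+P C7, sorted as CD73-, 9 opened against Sensitized (3.84% of all peaks) and 1 closed, at Nt5e (8.03%).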

How the data were processed

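The 25 ATAC-seq libraries of 7 groups were sequenced in 1 run. The authors trimmed reads with cutadapt 3.4, aligned them with Bowtie2 2.2.9 to GRCm39 (mm39), removed duplicates with Picard 2.21.8 and called peaks with Genrich 0.6.1. They deposited raw read counts per merged peak. The 7 deposited group peak lists, made with ChIP-R, give a score, a signal and a q-value per peak, of which positions and q-values were used. Total counts were 2430890 to 25419715 per library, and a low total limits the precision of the weakest peaks.

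Peaks were assigned with GENCODE vM39. DESeq2 1.42.0 (R 4.3.3) was fitted once to all 13527 peaks and 25 libraries, with Wald tests for 13 comparisons and the thresholds of the study (adjusted p under 0.1, log2 fold change beyond 0.9). Loess offsets (limma 3.58.1), TMM factors and the quasi-likelihood test of edgeR 4.0.16, total counts, filters, fits to 2 groups, a replicate block and leaving out libraries were alternatives. Members called at least once and promoter peaks were described singly. Like peaks were the 5 with the highest r for the Tox and the Tox2 peak with the smallest adjusted p in S+P C5 against Sensitized. One of these is not reported here. The script was tested on simulated counts. The members and lists were chosen with earlier results of these data known. Deviations of same-numbered libraries from their group means correlated at 0.108 to 0.400 between N+P C1 and N+P C5, 0.103 to 0.572 between S+P C4 and S+P C5 and 0.522 to 0.771 between S+P C5 and S+P C7, so these numbers were taken as pairs. Between S+P C4 and S+P C7 they were 0.0639 to 0.666, and 1 block was fitted over the 3 subsets.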

Additional observations from a re-analysis of the deposited data

Results flagged for a closer look

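Of 44 groups of 4 libraries tested, 2 held a library far from the other 3, where chance flags about 1 in 20. These were S+P C4 replicate 3 at Tox +56.5 kb, with a normalised count of 158.4, and Sensitized replicate 1 at Tox +89.6 kb, with 316.7.

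The change from Sensitized to S+P C5 differed from that from Naive to N+P C5, by the interaction, at 4 members with an adjusted p under 0.1, and pregnancy and the sort cannot be told apart in either. An unadjusted DESeq2 p under 0.05 was likewise found at 4 of the 11 members, close to the 36.7% of all peaks. Tox2 +0.2 kb had a log2 difference of 2.09 (DESeq2 adjusted p = 0.000911) and Tox2 +50.4 kb 0.92 (DESeq2 adjusted p = 0.0516). Tox +56.5 kb had -0.75 (DESeq2 adjusted p = 0.00632) and Tox +1.4 kb -0.74 (DESeq2 adjusted p = 0.0393), both within the fold threshold. Without Sensitized replicates 3 and 4, Tox +1.4 kb had -0.36 (DESeq2 adjusted p = 0.384) and Tox2 +50.4 kb 0.56 (DESeq2 adjusted p = 0.304), and the other two stayed under 0.1.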

How the results depend on the processing

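The 82 member values with a log2 size of at least 0.5 or an adjusted p under 0.1 were followed over the alternatives. Of their 1476 alternative values, 1381 kept their direction and their side of the thresholds, 57 lost a call, 32 gained one and 6 changed sign, and 17 of 41 called values were called in every alternative run. With loess offsets, the number of members called (and the share of all peaks) was 1 in Sensitized against Naive (7.9%), 2 in S+P C5 against Sensitized (6.24%), 5 in S+P C7 against Sensitized (10.5%), 5 in S+P C5 against N+P C5 (15.1%), 2 in S+P C5 against S+P C4 (5.24%), 3 in S+P C7 against S+P C4 (6.4%), 5 in S+P C4 against N+P C1 and 2 in the interaction. Of all 143 member values, smaller ones included, 12 changed sign with these offsets, among them Tox +174.2 kb in S+P C4 against N+P C1, which became a closing call (DESeq2 adjusted p = 0.00208). Sign changes among the 82 were -0.21 at Tox +108.8 kb and -0.22 at Tox +174.2 kb in Sensitized against Naive, -0.11 at Tox +174.2 kb in S+P C5 against N+P C5 and -0.85 at Tox +108.8 kb in S+P C4 against N+P C1. The opening share of all calls there went from 76.3% to 54.7% in S+P C4 against N+P C1, 61.0% to 35.1% in S+P C5 against S+P C4, 32.1% to 10.9% in S+P C7 against S+P C4 and 50.9% to 22.8% in the interaction. At an adjusted p under 0.05 the interaction was called at 1 member (4.5% of all peaks, against 5.97% in the main fit). Chosen after seeing the data, the fit without Sensitized replicates 3 and 4 called 6 members in Sensitized against Naive, 1 in S+P C4 against Sensitized, 2 in S+P C5 against Sensitized, 4 in S+P C7 against Sensitized and 1 in the interaction, and Tox -463.5 kb changed sign to 0.30 in S+P C5 against Sensitized and to 0.008 in the interaction. Without replicates 1 and 2 it called 1 in S+P C4 against Sensitized and 7 in the interaction. The cause of these changes was not tested.

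Leaving out 1 library gave 2 to 3 calls in Sensitized against Naive (6.69% to 10.9% of all peaks), 2 to 7 in S+P C5 against Sensitized (4.61% to 9.29%; 2 without Sensitized replicate 3, 3 without Sensitized replicate 4 or S+P C5 replicate 2), 7 to 9 in S+P C7 against Sensitized (10.3% to 14.5%), 3 to 8 in S+P C4 against N+P C1 (9.99% to 16.0%), 0 to 1 in S+P C7 against S+P C5 (1.3% to 4.47%) and 1 to 5 in the interaction (2.92% to 12%; 5 without Sensitized replicate 1, 1 without Naive replicate 2 or 3, N+P C5 replicate 1 or 2, Sensitized replicate 3 or 4, or S+P C5 replicate 1 or 2). With the replicate number as a block, 4 members were called in S+P C5 against Sensitized (7.01% of all peaks) and 9 in S+P C5 against N+P C5 (17.7%). The other counts of calls did not move. Across these groups, which come from different mice, the number marks no pair. With an overlap of at least 50%, the S+P C5 list held 7 members and the Naive list 2.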
